A study of Mus musculus with 6 samples.

Results

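Esr1, Pgr and Greb1 are 3 of the 16494 genes counted in single cells of the lower abdominal muscle (LAM), and they were chosen by name: Esr1 encodes estrogen receptor alpha, and Pgr and Greb1 are classical targets of that receptor. Cells came from 6 male mice on the FVB/N background, aged 9 to 10 weeks. The 3 Aromhum mice carry the human aromatase gene, CYP19A1, with its own human promoters, and had scrotal hernias. The 3 wild-type (WT) mice lacked the transgene and served as controls, and on each processing date the tissue of 1 mouse of each genotype, littermates of each other, was digested with collagenase II and Dispase II. The passage through strainers removed multinucleated cells, so muscle fibers were not sampled whole. The values were raw counts of unique molecular identifiers (UMIs, 1 per captured transcript) in 63647 cell barcodes.

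Estrogen receptor alpha is a ligand-activated transcription factor. Estradiol, which aromatase makes from testosterone, binds the receptor, and the receptor then acts with coregulator proteins at estrogen response elements in DNA. Pgr, the progesterone receptor, and Greb1, a chromatin-bound cofactor of the estrogen receptor, are used in breast and uterus as readouts of that activity, and the progesterone receptor is itself a hormone-dependent transcription factor with targets of its own. In muscle, fibroblasts make the connective tissue, and muscle stem cells (MuSCs), marked by Pax7, give rise to myoblasts that express Myod1 and later Myog.

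In the GRCm38 build (mm10), with the GENCODE vM21 annotation, Esr1 lies on the plus strand of chromosome 10 at chr10:4611593-5005614, Pgr on the plus strand at chr9:8899833-8968611, and Greb1 on the minus strand at chr12:16670615-16800886. The Greb1 locus overlaps an antisense gene, Gm48140, and a miRNA gene on its own strand, Gm44305, and whether the counting used strand is not given in the sources used here. The 250 bases upstream of the starts of both target genes are shown because their counts are the ones compared with the receptor's. They come from RefSeq (GRCm38.p6) and hold no exon of the annotation. Windows of 250 bases were searched on both strands for GGTCA or TGACC, the letters of either arm of an estrogen response element, for GGGCGG or CCGCCC, the core bound by Sp1, and for both arms with 3 bases between them. Capitals mark the matches, and sequences run 5′ to 3′ on the gene's strand, Pgr from chr9:8899583-8899832 (plus strand) and Greb1 from chr12:16800887-16801136 (minus strand).
Pgr: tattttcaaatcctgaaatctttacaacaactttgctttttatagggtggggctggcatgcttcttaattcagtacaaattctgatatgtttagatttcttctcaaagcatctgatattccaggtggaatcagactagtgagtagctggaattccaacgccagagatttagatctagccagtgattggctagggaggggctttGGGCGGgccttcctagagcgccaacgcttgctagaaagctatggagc
Greb1: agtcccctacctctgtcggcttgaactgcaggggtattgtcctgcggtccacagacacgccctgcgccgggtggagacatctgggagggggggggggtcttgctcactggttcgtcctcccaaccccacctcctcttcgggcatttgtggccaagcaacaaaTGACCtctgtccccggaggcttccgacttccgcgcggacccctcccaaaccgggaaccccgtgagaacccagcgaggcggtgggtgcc

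The printed Greb1 window held 1 TGACC, 88 bases before the start, and the Pgr window held 1 GGGCGG, 47 bases before the start, and none of the arm letters. The RefSeq table holds another start of Greb1, within the gene, whose window (chr12:16757240-16757489, minus strand, not printed because it overlaps a Greb1 exon of the annotation) held 2 GGTCA, 194 and 85 bases before that start. Of 32851 such windows of mouse genes, 35.2% held an arm and 32.7% a GGGCGG or CCGCCC. The 2 arms spaced by 3 bases were found in 0.0639% of the windows and in neither of those printed here.

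Each library held 7905 to 13764 barcodes at a median of 4728.5 to 8727 UMIs. CYP19A1 had 0 UMIs in all 3 WT mice and 770, 797 and 787 UMIs in Aromhum 1, 2 and 3. In WT 2, 68.2% of barcodes exceeded the study's limit of 5% mitochondrial UMIs, against 27.6% to 40.1% in the other mice, and 471 barcode sequences occurred in more than 1 library. Every deposited barcode was used. Barcodes were clustered without the 3 genes, and clusters were named by markers. Names here may thus differ from the study's own, 3540 barcodes in clusters with 2 leading types and 5840 in other unnamed clusters were not assigned, and values of single mice below are CPM, the UMIs of a gene in 1 cell type of 1 mouse scaled to a fixed total of all UMIs in those cells.

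The receptor and both targets were mainly transcripts of fibroblasts. Over all barcodes, 24950 UMIs of Esr1 were counted in 9158 barcodes, 13885 of Pgr in 4394 and 17948 of Greb1 in 6653. The 20673 fibroblast-like barcodes (marked by Pdgfra, Dcn and collagen genes) held 88.1% of the Esr1 UMIs, 95.1% of the Pgr UMIs and 89.8% of the Greb1 UMIs. Within them, 4676 barcodes formed a group named Esr1-high after the study's marker genes for it, such as Pnoc and Ren1, with Esr1, Pgr and Greb1 left out of the naming. One of its clusters, 305 of the 4676 barcodes, had endothelial genes (Gpihbp1, Cldn5 and Cdh5) beside Pnoc among its leading genes, and the 7 endothelial markers summed to 249 to 344 CPM in WT and 116 to 147 CPM in Aromhum barcodes of the group. Their part in the values of the group was not tested beyond leaving that cluster out, as given below. Over all mice the group held 78.2% of the fibroblast UMIs of Esr1, 87.0% of those of Pgr and 79.4% of those of Greb1. By mouse it held 45.8% to 54.9% (Esr1), 62.4% to 84.0% (Pgr) and 52.6% to 69.9% (Greb1) in WT and 82.7% to 84.9%, 85.3% to 95.8% and 80.6% to 82.7% in Aromhum mice.

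Esr1 reached 245 ± 55.9 CPM (mean ± SD, n = 6 mice) in Esr1-high fibroblasts. Next came fibroblasts marked by Comp and Tnmd, genes of tendon cells, with 44.1 ± 12.1 CPM, and then MuSC/myoblast cells with 35.6 ± 13.4, Dmkn-high fibroblasts with 25.1 ± 9.74, mesothelial cells, which line the body cavity, with 23.6 ± 4.08 and the fibroblasts marked as fibro-adipogenic progenitors (FAP-like) with 21.4 ± 4.44. From the Comp/Tnmd group down, neighbors in this order did not differ beyond their spread. The order turned with genotype, since MuSC/myoblast cells had 47.1 ± 7.07 CPM in WT (n = 3), beside 42.2 ± 7.26 in Comp/Tnmd fibroblasts, and 24.1 ± 0.398 in Aromhum mice, beside 46.0 ± 17.3 there and 25.7 ± 2.68 in mesothelial cells. A further cluster of tendon genes (Wif1, Fmod, Tnmd and Comp, 1537 barcodes) is in neither this group nor the fibroblast-like total, because its leading genes held a MuSC/myoblast marker (Chodl) and none of the fibroblast list. Esr1 there was 6.54 ± 3.10 CPM in WT and 13.1 ± 6.05 in Aromhum mice. Endothelial cells had the lowest, 1.27 ± 0.480 CPM.

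Pgr stood at 80.7 ± 80.8 CPM in Esr1-high fibroblasts, where the spread reflects the genotypes given below, and at 0.590 ± 0.742 in MuSC/myoblast cells and 0.374 ± 0.562 in endothelial cells. Greb1 followed another order, with 136 ± 44.3 CPM in Esr1-high fibroblasts, 36.1 ± 44.1 in MuSC/myoblast cells and 32.2 ± 24.97 in Comp/Tnmd fibroblasts. The order of the latter pair turned with genotype, since Greb1 was 3.93 ± 2.17 CPM in MuSC/myoblast cells and 17.7 ± 2.48 in Comp/Tnmd fibroblasts of WT mice (n = 3), and 68.3 ± 41.9 and 46.7 ± 30.4 in Aromhum mice.

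**Figure D1:**
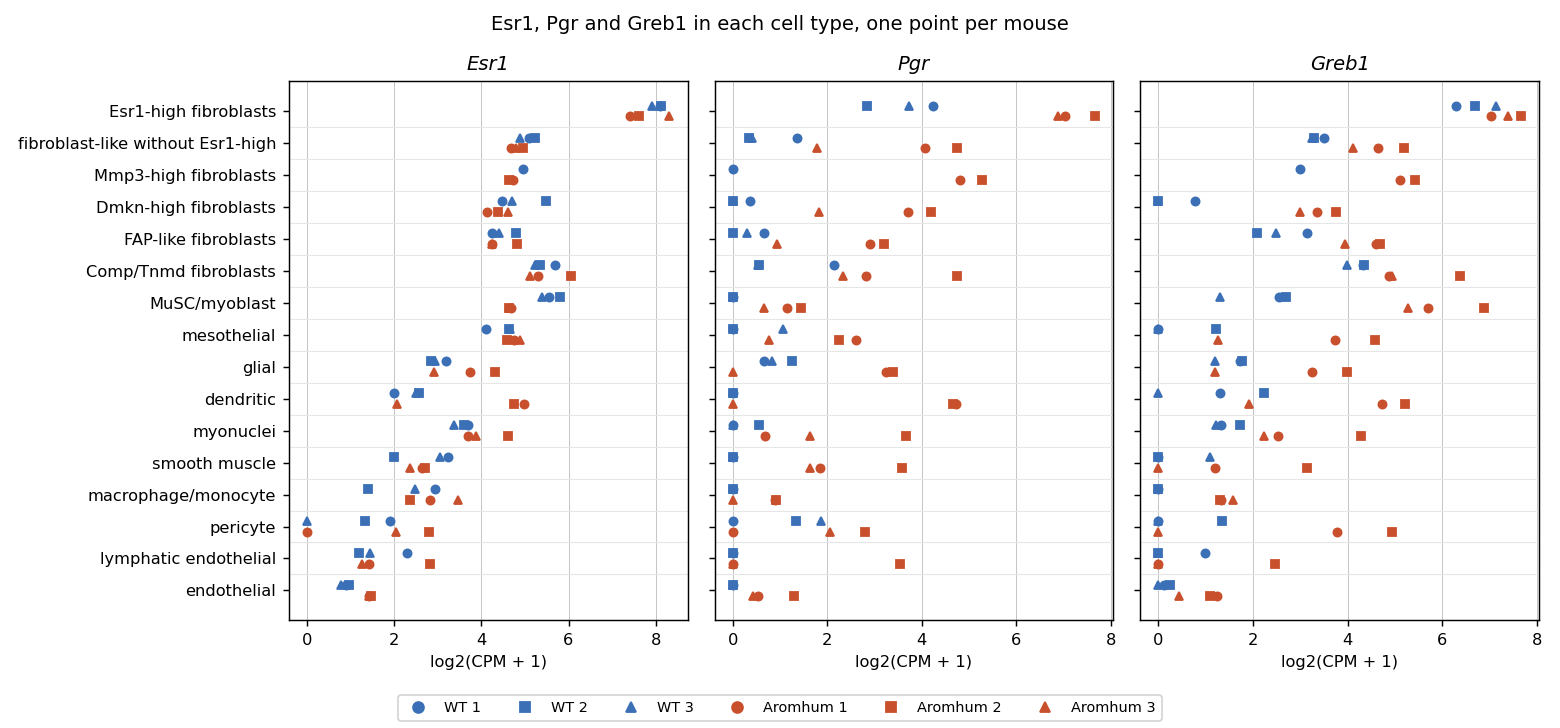
Levels of Esr1, Pgr and Greb1 as log2(CPM + 1) in each mouse (1 point each) by cell type and fibroblast group, with WT and Aromhum mice in separate colors. Esr1 and both targets are highest in Esr1-high fibroblasts, and MuSC/myoblast cells show Esr1 and Greb1 with next to no Pgr.

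The first question was whether receptor and targets differed by genotype in fibroblast-like cells as a whole. In those cells Esr1 stood at 63.8, 60.9 and 55.0 CPM in WT 1, 2 and 3 and at 88.4, 99.6 and 119.7 in Aromhum 1, 2 and 3. Every Aromhum mouse was above every WT mouse. The log2 fold change was 0.76 (SE 0.12, adjusted p = 0.01974, edgeR quasi-likelihood test on UMIs summed per mouse, Benjamini-Hochberg over all genes tested).

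Pgr was nearly absent from WT fibroblasts, at 3.66, 0.860 and 1.80 CPM, against 66.5, 100.6 and 38.9 CPM in Aromhum fibroblasts. The genotypes were far apart, and Aromhum 3 was the lowest of the Aromhum mice. The log2 fold change was 4.94 (SE 0.59, edgeR adjusted p = 0.01347). Greb1 stood at 19.0, 18.1 and 24.8 CPM in WT and at 70.6, 105.7 and 64.4 CPM in Aromhum mice, again without overlap, with a log2 fold change of 1.96 (SE 0.23, edgeR adjusted p = 0.01347). All 3 members thus rose, in a comparison that called 13.5% of the 13875 genes tested. The call was lost for all 3 within the study's limits of at most 2500 genes and 5% mitochondrial UMIs per barcode (Esr1 0.16, adjusted p = 0.5622, Pgr 4.39, 0.05674, and Greb1 1.41, 0.1605, edgeR), limits that leave 284 Esr1-high barcodes. It was also lost for all 3 without WT 2, WT 3 or Aromhum 1, and for Esr1 and Pgr without Aromhum 2, with adjusted p from 0.05066 to 0.08933.

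Esr1 was not called within either subset of the fibroblasts. Among Esr1-high fibroblasts Esr1 stood at 272.5, 277.2 and 241.9 CPM in WT and at 167.7, 194.0 and 317.5 CPM in Aromhum mice, so the genotypes overlapped (log2 fold change -0.22, SE 0.21, edgeR adjusted p = 0.51). In the fibroblasts outside that group Esr1 was 33.1, 36.7 and 28.7 CPM in WT and 24.6, 30.0 and 26.7 CPM in Aromhum mice, overlapping too (-0.23, adjusted p = 0.3004). Both values turned positive with finer clusters, to 0.49 and 0.22 at resolution 1.2, and without Aromhum 3, the highest mouse, the first was -0.50 (edgeR adjusted p = 0.04704). The Esr1-high group made up 10.3%, 8.57% and 10.6% of WT and 32.4%, 29.0% and 21.5% of Aromhum fibroblast-like barcodes, which is a description of the clusters, whose defining genes differ between genotypes, and no test of their number. These shares depended on the clustering. At resolution 1.2 the group held 1103 of 3721, 677 of 2613 and 435 of 1715 WT fibroblast-like barcodes. In Aromhum mice it then held 1850 of 5077, 2388 of 7044 and 1139 of 3644, a much narrower gap.

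Pgr differed by genotype inside the Esr1-high group, whose makeup differed as well. The Comp/Tnmd list summed to 1636 to 3442 CPM in WT and 597 to 944 CPM in Aromhum barcodes of the group, the list of the study's cluster 6 to 3431 to 5287 and 1165 to 2133 CPM, Dcn was 25803 ± 1973 and 13720 ± 634 CPM and Pdgfra 103 ± 23.5 and 382 ± 119 CPM, and the part of this in the results was not tested. Pgr stood at 17.8, 6.17 and 12.2 CPM in WT and at 129.7, 202.2 and 116.4 CPM in Aromhum mice, without overlap (log2 fold change 3.58, SE 0.37, edgeR adjusted p = 0.002325, in a comparison that called 15.9% of genes), and the call stood without any 1 of the 6 mice (log2 fold change 3.28 to 4.10). Without the cluster with endothelial genes the log2 fold changes in the group were -0.39 for Esr1, 3.42 for Pgr and 0.49 for Greb1, and again Pgr alone was called (edgeR adjusted p = 0.2571, 0.002994 and 0.1889). Greb1 there was 77.6, 101.6 and 140.1 CPM in WT and 128.8, 200.8 and 166.6 CPM in Aromhum mice, and WT 3 exceeded Aromhum 1. Its log2 fold change of 0.66 (SE 0.24, edgeR adjusted p = 0.1015) missed the threshold. It passed with the replicate number as a block (adjusted p = 0.03449) and at resolution 1.2 (1.38, 0.008054).

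Outside the Esr1-high group the targets were lower in both genotypes and did not overlap between them. Pgr was 1.58, 0.266 and 0.328 CPM in WT and 15.7, 25.8 and 2.42 CPM in Aromhum mice, with Aromhum 3 close to WT 1 (log2 fold change 4.22, SE 1.01, edgeR adjusted p = 0.06647). Without Aromhum 3 it was 4.71 (adjusted p = 0.001614), and over the 6 mice left out in turn it ran from 3.53 (without Aromhum 2) to 5.76 (without WT 1). Greb1 was 10.3, 8.71 and 8.52 CPM in WT and 23.8, 35.6 and 16.4 CPM in Aromhum mice (1.51, SE 0.31, edgeR adjusted p = 0.05824), and without Aromhum 3 it was 1.78 (adjusted p = 0.001665). None of the 3 members was called here by edgeR, where 1.44% of genes were, while both targets passed with DESeq2 (Pgr adjusted p = 0.004794, Greb1 8.142e-05). Both also passed narrowly in edgeR with the replicate number as a block.

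Values in the named groups outside it follow. In FAP-like fibroblasts Greb1 rose from 7.84, 3.23 and 4.61 CPM to 23.1, 24.7 and 14.3 CPM (log2 fold change 1.88, SE 0.32, edgeR adjusted p = 0.01444, 4.00% of genes called), while Esr1 had a log2 fold change of -0.09 (adjusted p = 0.8261). Pgr did not pass the filter on low counts there, at 0.581, 0 and 0.230 CPM in WT and 6.47, 8.22 and 0.917 CPM in Aromhum mice. That Greb1 call was lost without WT 2, WT 3, Aromhum 1 or Aromhum 2 (edgeR adjusted p from 0.05301 to 0.06728) and at resolution 1.2 (1.14, 0.3173). In Dmkn-high fibroblasts Greb1 went from 0.718, 0 and 0 CPM to 9.21, 12.4 and 6.99 CPM (4.52, SE 0.61, edgeR adjusted p = 0.0313, 0.944% of genes called), a call lost without any of WT 1, WT 2, WT 3, Aromhum 1 or Aromhum 2. Because WT 2 and WT 3 were at 0, the value rests on WT 1 and reached 9.22 without it, against 4.04 to 4.71 without any other mouse. Greb1 passed the filter on low counts through the Aromhum mice, so its fold is read as a rise of unknown size. The same holds for Pgr, which was also at 0 in WT 2 and WT 3. In these cells Pgr had a log2 fold change of 5.92 (SE 1.18, edgeR adjusted p = 0.05733, 9.41 without WT 1) and Esr1 of -0.59 (adjusted p = 0.2483). In Comp/Tnmd fibroblasts no member was called (0.0737% of genes were), with edgeR log2 fold changes of 0.08 for Esr1, 2.72 for Pgr and 1.34 for Greb1. Leaving out each mouse gave 1.503 (without Aromhum 2) to 4.59 (without WT 1) for Pgr and 0.67 (without Aromhum 2) to 1.58 for Greb1. One cluster of this group (1148 barcodes) scored nearly as high on the Mmp3-high list, and without it the values were -0.49, 1.24 and 0.84, none called (edgeR adjusted p from 0.3203 to 0.4618). Mmp3-high fibroblasts were nearly all from Aromhum 1 and 2 (724 and 1283 of 2055 barcodes) and were not tested. In them Pgr (27.0 and 37.4 CPM) and Greb1 (33.4 and 42.0 CPM) were at or above Esr1 (25.5 and 23.7 CPM).

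**Figure D2:**
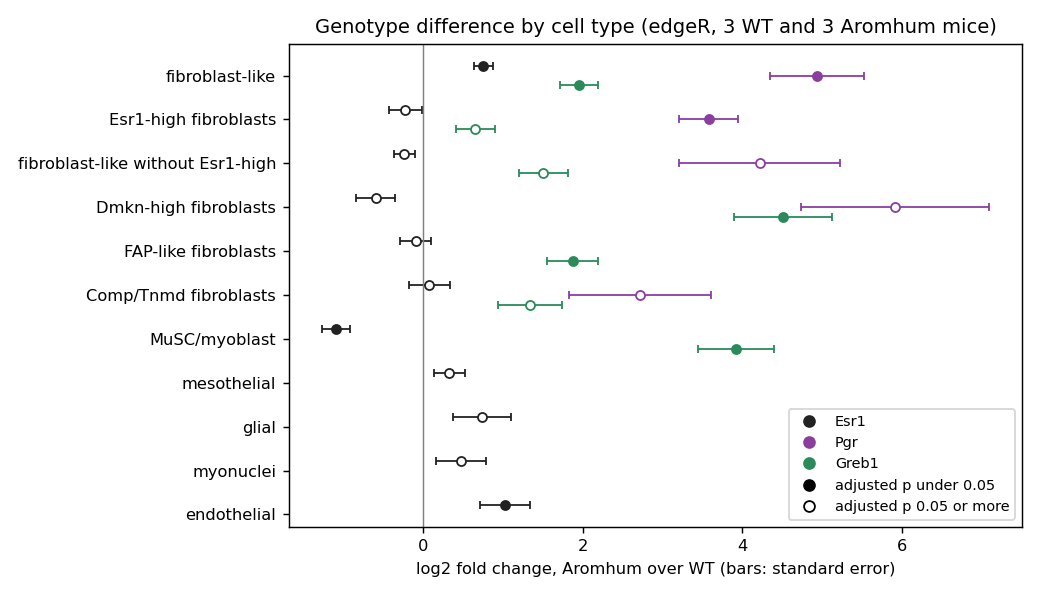
Log2 fold change of Esr1, Pgr and Greb1, Aromhum over WT, by cell type and fibroblast group, from edgeR, with bars of 1 SE on either side and filled points where the adjusted p was under 0.05. Both targets lie above 0 wherever they were tested, and Esr1 lies above 0 in fibroblast-like cells together and below 0 in MuSC/myoblast cells.

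The second question was whether the receptor and its targets were in the same barcodes. Of the 20673 fibroblast-like barcodes, 3195 held UMIs of both Esr1 and Pgr, where 2165 would hold both if the genes were detected independently within mouse and depth stratum (observed over expected 1.48). Esr1 and Greb1 were together in 4069 (1.49 times the expected number), and Pgr and Greb1 in 3215 (1.52). The size of these ratios depended on the barcodes and their depth, with 3.088, 2.521 and 4.361 within the study's limits and, for the first 2 pairs, 2.453 and 2.326 after thinning to 3000 UMIs. The odds ratio over depth strata was above 1 in 6 of 6 mice for each of these pairs. The expected numbers pool the Esr1-high group with the other fibroblasts, so the excess mixes co-detection with group membership. The shares that follow are not held for depth. Of WT fibroblast-like barcodes with an Esr1 UMI, 3.95% ± 3.15 (SD, n = 3) also held Pgr, against 0.435% ± 0.157 of those without. In Aromhum mice these shares were 55.6% ± 11.2 and 8.08% ± 5.86. For Greb1 the shares with and without Esr1 were 28.6% ± 3.30 and 3.79% ± 1.39 in WT and 65.7% ± 4.82 and 14.3% ± 4.67 in Aromhum mice. Both shares with Esr1 were higher in every Aromhum mouse than in every WT mouse (exact permutation test, 2-sided, p = 0.1, the lowest that 3 against 3 mice can give). Within the study's limits 410 Aromhum fibroblast-like barcodes had Esr1 alone, 101 with Greb1, 42 with Pgr and 64 with both targets. In WT mice these counts were 276, 40, 2 and 2. Both Aromhum shares with Esr1 were thus lower within the limits.

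All 3 transcripts were found together in 1.13%, 0.438% and 0.798% of fibroblast-like barcodes of WT 1, 2 and 3 and in 18.9%, 20.9% and 14.1% of those of Aromhum 1, 2 and 3. In counts these were 55 of 6492 WT and 2667 of 14181 Aromhum barcodes. Of these 2722 barcodes, 2433 were in the Esr1-high group, where 9.15%, 3.98% and 6.77% of WT and 51.8%, 64.0% and 61.4% of Aromhum barcodes held all 3. The commonest pattern with the receptor also differed. In WT mice 1223 fibroblast-like barcodes had Esr1 alone, 441 had Esr1 with Greb1 and 24 had Esr1 with Pgr, whereas in Aromhum mice the barcodes with all 3 (2667) outnumbered those with Esr1 alone (1321). Targets without a receptor UMI were present too: in Aromhum mice 861 barcodes had Greb1 alone, 338 Pgr alone and 490 both, and at these depths a barcode without a UMI may still hold the transcript. Of these, Aromhum 3 held 164, 17 and 11 among its 3048 fibroblast-like barcodes. Those with Pgr thus came nearly all from Aromhum 1 and 2. Within the study's limits all 3 were in 0.129%, 0% and 0% of WT and 0.794%, 1.88% and 1.14% of Aromhum fibroblast-like barcodes. In Esr1-high fibroblasts the Aromhum shares there were 9.86%, 24.4% and 22.7%. Fibroblast-like Aromhum barcodes with all 3 (64) were there fewer than those with Esr1 alone (410).

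**Figure D3:**
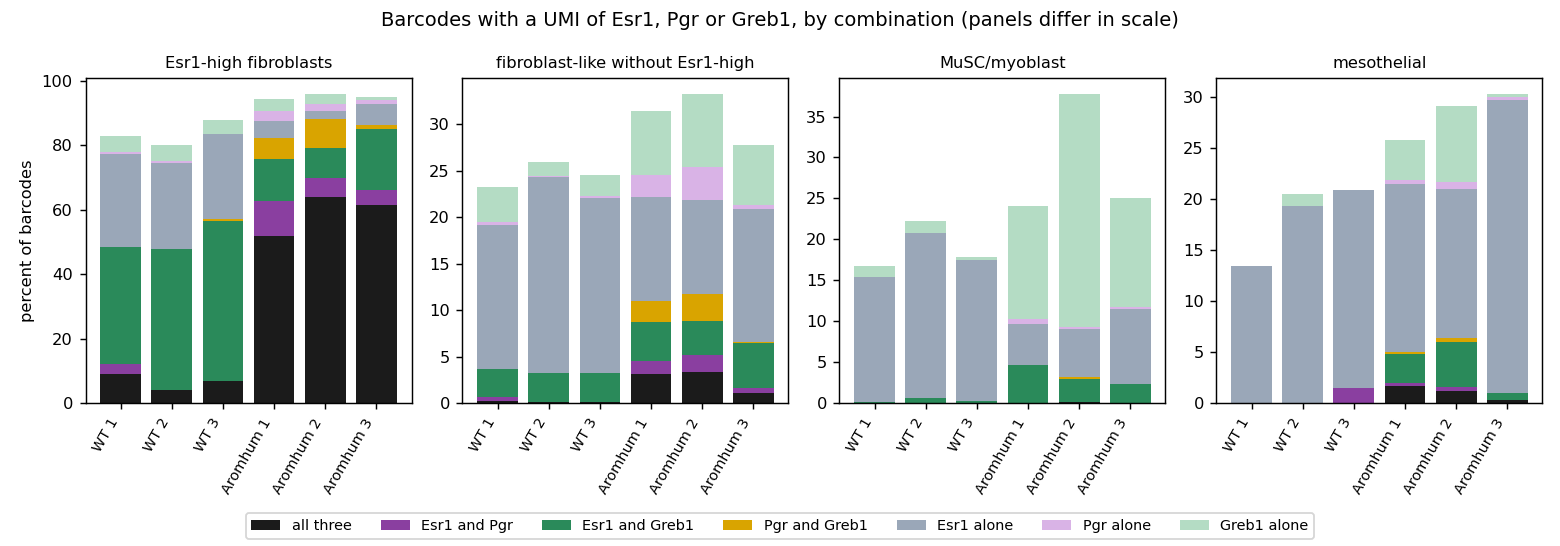
Percent of barcodes (y axes, which differ in scale) of each mouse with each combination of Esr1, Pgr and Greb1 UMIs, stacked, in Esr1-high fibroblasts, the other fibroblast-like cells, MuSC/myoblast cells and mesothelial cells. Barcodes with all 3 (black) make up 3.98% to 9.15% of Esr1-high fibroblasts in WT and 51.8% to 64.0% in Aromhum mice, and Aromhum MuSC/myoblast cells show mostly Greb1 alone.

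At one depth the mean shares with a target rose with the number of Esr1 UMIs in a barcode, though not at every step in every WT mouse for Pgr. Among fibroblast-like barcodes of 8000 to 16000 UMIs, Pgr was found in 0.487% of WT barcodes with no Esr1 UMI, 0.631% with 1, 3.93% with 2, 7.40% with 3 to 5 and 12.7% with 6 or more (means of 3 mice). The corresponding shares in Aromhum mice were 8.40%, 24.7%, 47.7%, 63.2% and 79.7%. They ran from 0.502%, 4.695%, 26.4%, 41.8% and 69.2% in Aromhum 3 to 16.7%, 44.25%, 60.5%, 82.2% and 89.0% in Aromhum 2. At no Esr1 UMI Aromhum 3 lay among the WT mice (0.238% to 0.704%). Among the fibroblasts outside the Esr1-high group alone, the Aromhum shares were lower, 5.56%, 13.3%, 20.8% and 30.2% at 0, 1, 2 and 3 to 5 Esr1 UMIs, against 0.475%, 0.415%, 2.50% and 3.13% in WT, so the steps over all fibroblasts mix the number of Esr1 UMIs with group membership. Aromhum 3 was the lowest Aromhum mouse outside the group as well, at 0.339%, 2.525%, 8.33% and 20.0%. Over all fibroblasts, WT barcodes with 6 or more Esr1 UMIs held Pgr less often (3.85% to 20.0% over mice) than Aromhum barcodes with equally many (69.2% to 89.0%). Greb1 was found in most barcodes of both genotypes at high receptor counts, with 75.1% in WT and 89.6% in Aromhum mice at 6 or more Esr1 UMIs against 4.19% and 15.6% at none. The exact permutation p was 0.1 at every step for both genes, apart from Pgr at no Esr1 UMI (p = 0.3). These shares come from the same barcodes as the Esr1-high group, and as few as 10 barcodes of a mouse lie in the highest class.

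**Figure D4:**
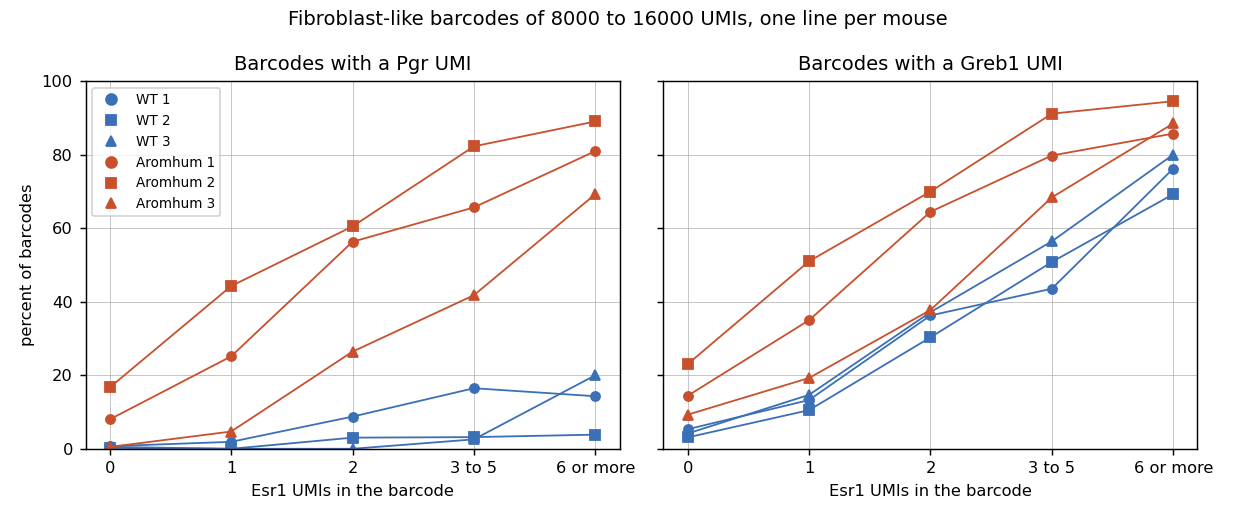
Percent of fibroblast-like barcodes of 8000 to 16000 UMIs with a Pgr or Greb1 UMI, by the number of Esr1 UMIs in the barcode, for each mouse. At 6 or more Esr1 UMIs, Pgr is found in 3.85% to 20.0% of WT and 69.2% to 89.0% of Aromhum barcodes, and Greb1 in 75.1% and 89.6% on average.

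The other genes of the pathway were read from the fibroblast-like fit. Of 6 receptor genes tested, 3 rose and 0 fell: Esr1, Pgr and Pgrmc2, a membrane progesterone receptor component, at 0.31 log2 (SE 0.08, edgeR adjusted p = 0.04178). Gper1 did not pass the filter on low counts. Of 15 coregulators, 0 rose and 2 fell, a share near the 13.5% of all genes called, so nothing is read from the count. These were Ncoa1, by 0.49, and Ncoa3, by 0.72 on the log2 scale (edgeR adjusted p = 0.02731 and 0.02806). Both are p160 coactivators of nuclear receptors, as is Ncoa2, which had -0.11 (edgeR adjusted p = 0.5413). Within the Esr1-high group Ncoa1 had -0.30 (edgeR adjusted p = 0.2659) and Ncoa3 -0.70 (edgeR adjusted p = 0.03066). Of 14 coregulators tested in that group, 1 was called, where 15.9% of genes were. Outside the group 0 of 14 were called, where 1.44% of genes were.

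Of 19 estrogen target genes, 7 rose and 3 fell, with a median log2 fold change of 0.68 against 0.01 over all genes tested. The list holds Pgr and Greb1 themselves and was chosen with earlier results of these data known. Within the Esr1-high group 4 of 19 rose and 2 fell, where 15.9% of all genes were called. Outside it 1 of 18 rose and 2 fell, where 1.44% of all genes were called. With a mouse left out, as few as 7 genes were called in all fibroblast-like cells, so these calls depend on single mice. Besides Pgr and Greb1, Wnt4, a secreted signal and progesterone-responsive gene of the uterus, rose from 15.3 ± 3.17 to 65.2 ± 5.75 normalized CPM (2.08, SE 0.16, edgeR adjusted p = 0.005345). Within the Esr1-high group its log2 fold change was 1.18 (adjusted p = 0.01302), and outside it 0.01 (adjusted p = 0.9775, edgeR). Ramp3, a receptor-activity-modifying protein, rose from 4.69 ± 1.82 to 206 ± 102 (5.44, SE 0.53, edgeR adjusted p = 0.01073). Ramp3 is also a marker by which the Esr1-high group was named. The growth and immediate-early genes Myc (-1.01, adjusted p = 0.01569) and Fos (-1.29, adjusted p = 0.01914, edgeR) fell. Of 9 progesterone receptor targets, 1 rose and 1 fell: Areg, an epidermal growth factor receptor ligand also on the estrogen target list, at 3.37 (SE 0.71, edgeR adjusted p = 0.03093), and Zbtb16, a zinc-finger transcription factor, at -1.03 (SE 0.25, adjusted p = 0.04214). The median of this list was -0.41. With 13.5% of all genes called, nothing is read from this count.

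Outside fibroblasts, the MuSC/myoblast cells (2889 barcodes) showed the receptor and Greb1 moving apart. Esr1 stood at 45.7, 54.8 and 40.9 CPM in WT 1, 2 and 3 (85, 179 and 84 UMIs) and at 24.5, 23.8 and 23.9 CPM in Aromhum 1, 2 and 3 (40, 55 and 41 UMIs). Every Aromhum mouse lay below every WT mouse, and Esr1 fell by 1.09 on the log2 scale (SE 0.18, edgeR adjusted p = 0.02324). Greb1 stood at 4.83, 5.51 and 1.46 CPM in WT (9, 18 and 3 UMIs) and at 50.9, 116 and 37.9 CPM in Aromhum mice (83, 268 and 65 UMIs). It rose by 3.92 log2 (SE 0.47, edgeR adjusted p = 0.01408). Greb1 passed the filter on low counts in these cells through the Aromhum mice, so with so few WT UMIs its fold is read as a rise of uncertain size. Both members tested were called, where 2.74% of 8066 genes were. Both calls were lost without WT 2, WT 3, Aromhum 1 or Aromhum 2 (adjusted p from 0.06309 to 0.1228), with log2 fold changes of -1.19 to -0.94 for Esr1 and 3.34 to 4.35 for Greb1 over the 6 mice left out in turn. With the replicate number as a block both were called (Esr1 adjusted p = 0.005717, Greb1 8.088e-06, edgeR), among 654 genes against 221 without it. Within the study's limits only 413 of the 2889 barcodes remained, 28 of 723 in WT 2, and neither member passed the filter on low counts. Without the upper limit on genes, Esr1 was not called and Greb1 did not pass the filter.

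In shares, 15.5%, 20.7% and 17.4% of WT and 9.71%, 8.92% and 11.5% of Aromhum MuSC/myoblast barcodes held an Esr1 UMI, and 1.46%, 2.21% and 0.688% of WT and 18.5%, 31.6% and 15.6% of Aromhum barcodes held Greb1. Thinned to 1000 UMIs per barcode, the mean shares were 4.91% and 3.49% for Esr1 and 0.286% and 6.36% for Greb1. Pgr had 0 UMIs in 1638 WT barcodes. That allows a share of barcodes with a UMI, not of cells with the transcript, of up to 0.183% (3 counts, counting error only). Aromhum 1, 2 and 3 had 2, 4 and 1 Pgr UMIs, and their pooled CPM was 2.96 times that of 3 counts over the WT mice. This is no lower bound, because it leaves out the counting error of the 7 Aromhum UMIs and the spread over mice. Pgr was 1.85%, 1.72% and 1.498% of the fibroblast level of the same Aromhum mice, beside 5.77%, 9.34% and 4.91% for the fibroblast collagen gene Col3a1.

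Receptor and target overlapped only weakly within these cells. Esr1 and Greb1 were together in 48 barcodes, 1.27 times the number expected, and the odds ratio was above 1 in 5 of 6 mice. In Aromhum mice 34.1% ± 14.0 of barcodes with an Esr1 UMI and 20.6% ± 9.43 of those without held Greb1. Pgr was found in only 6 of the 2889 barcodes, 1 of them with Esr1, too few to show an overlap or its lack.

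Markers in these cells moved with genotype as well. The summed level of the 7 fibroblast markers was 467 to 767 CPM in WT and 1213 to 3348 CPM in Aromhum MuSC/myoblast cells, with none of the 7 at 0, and the MuSC/myoblast list summed to 3200 to 5074 and 2430 to 3215 CPM. Myod1 was 977 ± 161 CPM in WT and 390 ± 84.2 in Aromhum mice, Myog was 0, 13.5 and 0 against 215, 76.6 and 54.8 CPM, and Pax7 was 47.1 ± 13.5 against 34.8 ± 5.56. The 9 markers of the Esr1-high fibroblasts went the other way from the fibroblast list, at 987 to 1350 CPM in WT and 337 to 610 CPM in Aromhum MuSC/myoblast cells. Erfe, which is among these 9, is also a leading gene of the MuSC/myoblast cluster itself, so this sum is not read as fibroblast transcripts. In barcodes without a Myog UMI, Esr1 was 46.9 ± 6.70 CPM in WT and 24.1 ± 0.595 in Aromhum mice and Greb1 3.87 ± 2.10 and 70.7 ± 44.8 (exact permutation p = 0.1 for each). That split was chosen after the data were seen and left out only 7 WT and 32 Aromhum barcodes. Its values could hardly differ from those of all barcodes, so it is no check on the shift in myoblast genes. Without the barcodes marked as doublets the fold changes were -1.08 and 3.92. In Aromhum 1, 2 and 3, Greb1 stood at 72.1%, 109.7% and 58.8% of the fibroblast level of the same mouse, and the fibroblast gene Dcn at 9.53%, 11.1% and 3.24%. That comparison is a description, and the part of fibroblast transcripts and of the shift in myoblast genes was not tested.

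The difference of the genotype effect between cell types was tested itself. Compared with fibroblast-like cells, the Esr1 effect in MuSC/myoblast cells was lower by 1.84 log2 (SE 0.19, edgeR interaction, adjusted p = 0.0009805) and the Greb1 effect higher by 1.85 (SE 0.38, adjusted p = 0.03336), where 1.75% of genes differed. The size of the Greb1 difference rests on the low WT counts of Greb1 in MuSC/myoblast cells. Pgr did not pass the filter on low counts within MuSC/myoblast cells, so its value in the joint fit (2.46, adjusted p = 0.8068) is not read as a difference. Against fibroblasts outside the Esr1-high group, the Esr1 difference was -0.86 (edgeR adjusted p = 0.07528) and the Greb1 difference 2.34 (adjusted p = 0.02348). Over all barcodes the genotype effect on Esr1 was not called different from that of fibroblast-like cells in mesothelial (Esr1 -0.38, adjusted p = 0.3715, 1.69% of genes called), endothelial (Esr1 0.27, adjusted p = 0.6106, 13.3%) or glial cells (Esr1 -0.04, adjusted p = 0.9898, 2.25%, all edgeR). Against fibroblasts outside the Esr1-high group it was called in endothelial cells (1.25, adjusted p = 0.01842, edgeR). Both targets in these types and all 3 members in smooth muscle cells did not pass the filter within the type and entered the joint fit through their fibroblast counts, so their values are not read as differences. Mesothelial Greb1 had 2.04 (edgeR adjusted p = 0.5525) with a range of 1.46 to 8.98 over the mice left out, and passed at 2.67 without Aromhum 3 (adjusted p = 0.0315). Glial Pgr had -2.71 (adjusted p = 0.2157) and passed at -5.63 without marked doublets (adjusted p = 0.03036, edgeR), with 7 UMIs in WT and 2 in Aromhum glial cells. For the reason given, neither pass is read as a difference.

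Of the 15 estrogen target genes tested in MuSC/myoblast cells, 3 rose and 2 fell, where 2.74% of all genes were called. Besides Greb1, the complement gene C3 rose by 1.95 log2 (SE 0.38, edgeR adjusted p = 0.03077) and Ctsd, a lysosomal protease, by 0.79 (adjusted p = 0.04429), and Myc and Fos fell by 0.92 and 1.23. With a mouse left out, the genes called in these cells numbered as few as 0, so each of these calls depends on single mice. C3 stood at 8.12 ± 4.56 and 30.0 ± 11.3 normalized CPM in WT and Aromhum MuSC/myoblast cells and at 772 ± 323 and 1421 ± 658 in fibroblast-like cells, and the part of the fibroblast transcripts, whose list was higher in Aromhum MuSC/myoblast cells, was not tested. None of the 13 coregulators or 8 progesterone receptor targets tested there was called by edgeR.

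Mesothelial cells (2720 barcodes, 2333 of them from Aromhum mice) held the receptor at a like level in both genotypes. Esr1 was 16.2, 24.0 and 24.1 CPM in WT and 25.7, 23.0 and 28.4 CPM in Aromhum mice, overlapping (log2 fold change 0.33, SE 0.19, edgeR adjusted p = 0.3692, 0.188% of genes called). Greb1 had 3 UMIs in WT and 419 in Aromhum mice, or 0, 1.33 and 0 CPM against 12.4, 22.8 and 1.40 CPM. It was high in Aromhum 1 and 2, and Aromhum 3 lay beside WT 2. Greb1 did not pass the filter on low counts. With no filter its log2 fold change was 4.34 (edgeR adjusted p = 0.1557), and without Aromhum 3 it was 4.82 (adjusted p = 0.00457). Pgr had 1 UMI in WT and 100 in Aromhum mice.

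Where mesothelial targets were detected, they were in barcodes with the receptor more often than expected: Esr1 and Greb1 in 93 barcodes (1.51 times the expected number), Esr1 and Pgr in 32 (2.08 times) and Pgr and Greb1 in 30 (3.11 times). Without the barcodes marked as doublets these counts were 69, 16 and 13 (1.42, 1.91 and 2.63 times), and barcodes with all 3 numbered 9 in place of 25. Aromhum 1 and 2, the mice with the targets, also had the most of the Esr1-high fibroblast markers in these cells, 1683 and 999 CPM against 207 in Aromhum 3 and 36.2 to 125 in WT, with none of the 9 markers at 0. Their part in the result was not tested. Dcn stood at 65.9% to 95.8% of the fibroblast level in Aromhum mesothelial cells and at 33.6% to 40.9% in WT.

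In endothelial cells (15176 barcodes) the 3 genes were near 0. Esr1 was 0.850, 0.954 and 0.721 CPM in WT and 1.68, 1.77 and 1.67 CPM in Aromhum mice, from 38 and 45 UMIs in all. Its log2 fold change of 1.03 (SE 0.31) passed narrowly (edgeR adjusted p = 0.04635), where 17.8% of genes were called, and was lost with DESeq2 (0.1663) and without any 1 of the 6 mice. With the replicate number as a block it was called (adjusted p = 0.04738, edgeR), among 3200 genes against 2103 without it. These levels were 1.31% to 1.91% of the fibroblast level of the same mouse, beside 0.388% to 1.07% for Col3a1, and the fibroblast list summed to 158 to 238 CPM in WT and 383 to 426 in Aromhum endothelial cells. Pgr had 0 UMIs in 9504 WT barcodes, which allows a share of barcodes with a UMI of up to 0.0316%, and 17 in Aromhum mice. Their pooled CPM was 9.72 times that of 3 counts over the WT mice, which is again no lower bound. Greb1 had 4 and 23 UMIs in WT and Aromhum mice. No endothelial barcode held Esr1 with Pgr or with Greb1.

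Glial cells (2507 barcodes) held Esr1 at 8.07, 6.20 and 6.69 CPM in WT and 12.3, 19.0 and 6.54 CPM in Aromhum mice, with Aromhum 3 among the WT values (log2 fold change 0.74, edgeR adjusted p = 0.5586, 0.389% of genes called). Within them, the cluster led by Lyz2, Col20a1 and Bche had 15.4 ± 7.36 CPM. Over all glial cells Pgr had 8 UMIs in WT and 18 in Aromhum mice and Greb1 16 and 25, and Esr1 and Greb1 shared 9 barcodes, 2 of them with Pgr as well. Without the barcodes marked as doublets Pgr had 7 and 2 UMIs, Esr1 and Greb1 shared 5 barcodes and none held all 3. The fibroblast list summed to 7860 to 9751 CPM in WT and 9797 to 10976 CPM in Aromhum glial cells, and its part in these counts was not tested.

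Smooth muscle cells had 0 UMIs of Pgr in 1109 WT barcodes, which allows a share of barcodes with a UMI of up to 0.271%, and 4, 14 and 3 in Aromhum mice. Pooled, the Aromhum CPM was 7.51 times that of 3 counts over the WT mice, which is no lower bound either. Pgr was there 3.91%, 10.95% and 5.37% of the fibroblast level of the same Aromhum mice, beside 11.7%, 13.9% and 10.3% for Col3a1. The fibroblast list summed to 917 to 1311 CPM in WT and 1974 to 3080 CPM in Aromhum smooth muscle cells and the Esr1-high list to 19.2 to 59.2 and 139 to 186 CPM, and their part in the result was not tested. Myonuclei, barcodes rich in muscle fiber transcripts, had an Esr1 log2 fold change of 0.48 (edgeR adjusted p = 0.704, 0.308% of genes called). A cluster named dendritic by 4 detected markers, whose leading genes (Cd74, H2-Aa, Lyz1, Lyz2, Il1b) include genes of monocytes too, held Esr1 at 30.7 and 26.0 CPM and Pgr at 25.4 and 24.3 CPM in Aromhum 1 and 2, and at 3.21 and 0 CPM in Aromhum 3. Dcn in the same cells was 36.3%, 34.6% and 8.50% of the fibroblast level. Without the barcodes marked as doublets the Aromhum mean in this cluster was 3.97 CPM for Esr1 against 20.0 with them, and 3.25 against 16.6 for Pgr, so most of those UMIs were in marked barcodes.

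Across the 16 named types and fibroblast groups, the genes whose mean level was most like that of Esr1, among 11649 genes, were Mdk (Pearson r 0.840), Atxn10 (0.819), Prrc1 (0.815), Medag (0.809) and Rbp4 (0.806), with Greb1 at rank 18 (0.764) and Pgr at rank 170 (0.640). For Pgr they were Agt (0.919), Gm16485 (0.919), Col12a1 (0.892), Spon2 (0.884) and Rxfp1 (0.881), and for Greb1 Gm266 (0.885), Wisp1 (0.859), Mrc2 (0.855) and Bdkrb1 (0.854). The groups share mice and libraries, so these are descriptions. All of the genes named here were highest in Esr1-high fibroblasts except Medag (Comp/Tnmd fibroblasts), Agt and Mrc2 (Mmp3-high fibroblasts) and Bdkrb1 (FAP-like fibroblasts).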

How the data were processed

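The 6 libraries (10x Genomics 3′ chemistry) were aligned by the authors to mm10 plus human CYP19A1 with Cell Ranger 3.0.2, and raw UMI counts were deposited in 1 table, with no normalization and 0 columns left unused. The 3 members and the gene lists were chosen with earlier results of these data known. Barcodes were log-normalized and clustered with Esr1, Pgr and Greb1 left out (2000 variable genes, 30 components, 20 neighbors, Leiden at resolution 0.8, leidenalg 0.10.2, scanpy 1.11.5, Python 3.11.15) and named by markers. A cell type cluster whose second list scored at least 90% of the first was left unnamed, a rule added after seeing the clusters and not applied to the clusters within fibroblasts, where 1 cluster (1148 barcodes, 90.8%) stayed in the Comp/Tnmd group with neither gene among its 10 leading genes. Scrublet marked 1.23% to 3.23% of barcodes per mouse as doublets, which were kept. UMIs were summed per mouse and type with at least 20 barcodes in each of the 6 mice and tested with edgeR 4.0.16 in R 4.3.3 (TMM, filterByExpr, quasi-likelihood test, Benjamini-Hochberg over all genes, threshold 0.05), checked on simulated data. CPM are the sums per mouse scaled by total UMIs, and those called normalized use TMM. Shares were compared by exact permutation. Expected co-detection was computed within mouse and strata of total UMIs (edges 2000, 4000, 8000 and 16000). Alternatives were DESeq2 1.42.0, other size factors, filters, cell limits, resolutions, doublet removal, a replicate block and each mouse left out. Named are the members in every type, list genes past the threshold in fibroblast-like cells (at most 6 per list, lowest p) and the 5 genes of most like pattern per member, except that some genes under this rule are not reported here. MuSC/myoblast list genes were named in addition, after their values were seen.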

Additional observations from a re-analysis of the deposited data

Results flagged for a closer look

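The genotype effect on 2 members differed between MuSC/myoblast cells and fibroblast-like cells by a test of the difference itself (edgeR interaction, mouse as a factor). For Esr1 the log2 fold change in MuSC/myoblast cells minus that in fibroblast-like cells was -1.84 (adjusted p = 0.0009805), with Esr1 lower in 3 of 3 Aromhum mice than in any WT mouse in MuSC/myoblast cells and higher in 3 of 3 in fibroblast-like cells. For Greb1 it was 1.85 (adjusted p = 0.03336), with Greb1 higher in 3 of 3 Aromhum mice in both types. The size of that difference rests on low WT counts of Greb1 in MuSC/myoblast cells. The Greb1 difference missed the threshold without WT 3, Aromhum 1 or Aromhum 2 (1.36, 1.94 and 1.61, adjusted p = 0.08695, 0.13 and 0.0944, edgeR), and the Esr1 difference passed it without any of the 6 mice. Against fibroblasts outside the Esr1-high group the Esr1 difference was -0.86 and not called (adjusted p = 0.07528, edgeR). Within the study's limits on barcodes neither was called (Esr1 -1.43, adjusted p = 0.252, Greb1 2.78, adjusted p = 0.08164, edgeR). Neither member passed the filter on low counts in MuSC/myoblast cells there, so these values are not read as differences.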

How the results depend on the processing

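Over 55 results and 640 alternatives, 529 counted as unchanged, 52 lost the call, 19 gained it, 24 moved and 16 turned direction. For fold changes, unchanged means that direction and side of the threshold were kept. Shares could not change side, because their permutation p cannot fall under 0.1. Ratios and gene counts have no threshold and counted as unchanged after a small shift. The 529 is thus no measure of robustness, and the cause of the changes was not tested. Within the study's limits the fibroblast-like log2 fold changes were 0.16 (Esr1), 4.39 (Pgr) and 1.41 (Greb1), none called. The interaction values of MuSC/myoblast cells there were -1.43 (Esr1) and 2.78 (Greb1), neither called nor read as a difference. The co-detection ratios there were 3.088 (Esr1 and Pgr), 2.521 (Esr1 and Greb1) and 4.361 (Pgr and Greb1). Thinned to 3000 UMIs the first 2 ratios were 2.453 and 2.326. Without the upper limit on genes Esr1 in MuSC/myoblast cells was -1.34, not called, and Greb1 did not pass the filter on low counts, as neither did within all limits. The interaction for Esr1 was -0.86 against fibroblasts outside the Esr1-high group.
Esr1 turned direction in values that were not called: 0.49 in Esr1-high and 0.22 in the other fibroblasts at resolution 1.2, 0.26 in the latter and 0.14 in Dmkn-high fibroblasts with the runs of columns of the table as clusters, -0.49 in Comp/Tnmd fibroblasts without the cluster close to a second list (both alternatives added after seeing the data), and interactions of 0.63 (mesothelial) and 0.96 (glial) against fibroblasts outside the Esr1-high group. The Aromhum minus WT share with Esr1 in fibroblast-like barcodes was -1.23 percentage points under the study's limits, and in Esr1-high fibroblasts -6.487 under them and -0.89 after thinning. Leaving out each mouse gave Esr1 -0.29 to 0.07 (FAP-like), -0.26 to 0.26 (Comp/Tnmd) and, as the glial interaction, -0.43 to 0.41.
Leaving out each mouse also gave ranges of 0.65 to 0.83 (Esr1), 4.55 to 5.79 (Pgr) and 1.69 to 2.11 (Greb1) in fibroblast-like cells, -1.19 to -0.94 (Esr1) and 3.34 to 4.35 (Greb1) in MuSC/myoblast cells, and 1.36 to 2.45 for the Greb1 interaction.
Genes called in fibroblast-like cells numbered 1877, against 2838 with DESeq2, 1 within the limits and 7 to 3991 without each mouse. In MuSC/myoblast cells they numbered 221, against 340 with DESeq2, 766 with no filter, 44 within and 21 without the upper limit, 338 with column runs and 0 to 1012 without each mouse. With the replicate number as a block there were 654. Same-numbered mice deviated together with correlations of 0.23, -0.11 and 0.18 in fibroblast-like cells. In 3 of the 16 types and groups tested, MuSC/myoblast (0.20, 0.11 and 0.17), endothelial (0.29, 0.15 and 0.27) and macrophage/monocyte cells, all 3 were over 0.1. Neither the labels nor the table tie a number to a date, so the main test of no type took the numbers as pairs. In these 3 types the block, as an alternative, changed no member's call. With the block all 3 members remained called in fibroblast-like cells (adjusted p = 0.03629, 0.01762 and 0.02384), and both targets in the other fibroblasts passed (Pgr 0.04048, Greb1 0.04997).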
